A study of Mus musculus with 20 samples.

Results

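The Rab genes encode small GTPases that act as switches of membrane traffic. A Rab protein loaded with GTP sits on the membrane of one compartment and recruits effectors such as tethers, motors and adaptors, and it leaves that membrane after GTP hydrolysis. Exchange factors switch Rab proteins on, GTPase-activating proteins switch them off, and GDP dissociation inhibitors carry the prenylated GDP-bound form through the cytosol. In hepatocytes these routes serve secretion of plasma proteins and lipoproteins, uptake and recycling of receptors, bile canaliculus delivery, lysosomal degradation and lipid droplet turnover. The members were the rows of the deposited table whose platform gene symbol is Rab followed by digits, with or without a letter, taking the row with the highest mean where a symbol had several. This gave 56 genes, each with 1 probe set, of 19505 gene symbols on the array. By the compartment they are best known for, 13 members belong to transport from the endoplasmic reticulum to the Golgi and to the Golgi itself, 9 to early endosomes, 10 to recycling and surface delivery, 10 to late endosomes and lysosomes, 8 to regulated secretion and 6 to lipid droplets, cilia and other sites.

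The liver RNA of 20 mice was hybridised to Affymetrix arrays, 1 array per mouse, with 5 mice in each of 4 groups. Fasted Mcl1(L-/-) and fed Mcl1(L-/-) mice lacked Mcl1, a BCL2 family gene whose protein holds back apoptosis, in the liver, and fasted WT and fed WT mice were set against them. Deletion was made in Mcl1(F/F) mice by an adeno-associated virus, AAV-LP1-Cre, in which LP1 is a liver promoter. The growth protocol naming this virus stands on every sample, WT included. The sources used here do not say what the WT mice received or whether they carried Mcl1(F/F). Virus, Cre and loss of Mcl1 therefore cannot be told apart between the genotypes. Fasted mice spent 48 h alone in wire-bottom cages with no food, while fed mice ate freely, and single housing is stated for the fasted mice alone. The sources used here give neither age nor sex nor strain of the mice. The study asks how fasting changes liver transcripts with and without Mcl1. Values are normalised log2 signals, a scale on which a difference of 1 is a doubling, and the signals of different probe sets cannot be ranked against each other.

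Mcl1 signals lay between 5.88 and 6.50 in fasted Mcl1(L-/-) livers against 7.16 to 7.41 in fasted WT livers, and between 5.83 and 6.24 in fed Mcl1(L-/-) livers against 7.25 to 7.60 in fed WT livers. The sources used here do not say whether its probes lie inside the deleted stretch. The 10 hepatocyte markers summed to a linear signal between 35558 and 36827 in fasted Mcl1(L-/-) livers, 34018 and 34961 in fed Mcl1(L-/-) livers, 36902 and 37640 in fasted WT livers and 34372 and 35537 in fed WT livers, and none had a mean below the median of all probe sets. Within groups, arrays correlated at 0.979 to 0.990. Replicates 3 and 4 of the fasted Mcl1(L-/-) group stood apart from the rest of their group. On the first principal component, which held 34.2% of the variance, they scored 18.3 and 27.0 against 42.1 to 46.8 for the other fasted Mcl1(L-/-) arrays and 6.61 to 18.4 for fasted WT arrays.

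Differences were tested with limma across all 22206 probe sets, and a gene was called at a Benjamini-Hochberg adjusted p under 0.05. Of the 56 Rab genes, 8 were called in at least 1 of 5 comparisons and 48 in none. Fasting in Mcl1(L-/-) livers changed 7 of them, or 12.5%, against 14.4% of all probe sets. Of these, 6 rose, against 8.2% of all probe sets, and Rab29 fell, against 6.25%. Fasting in WT livers changed 1 of 56, Rab31, which fell, and that is 1.79% against 6.79% of all probe sets called and 3.68% called lower. The interaction, which is the fasting difference in Mcl1(L-/-) livers minus that in WT livers, was called for Rab30 and Rab31. Both were positive. That is 3.57% of the Rab genes, against 0.135% of all probe sets called and 0.0811% called positive. The share of all probe sets moved with single arrays: it ran from 0.0405% without fasted WT replicate 2 to 1.49% without fasted Mcl1(L-/-) replicate 3, and it was 3.45%, near the Rab share, without fasted Mcl1(L-/-) replicates 3 and 4. The same 2 genes were higher in fasted Mcl1(L-/-) than in fasted WT livers, 3.57% against 4.99% of all probe sets called and 3.32% called higher. Here too the share of all probe sets moved, to 2.24% without fasted Mcl1(L-/-) replicate 2, 7.69% without fasted Mcl1(L-/-) replicate 3 and 1.8% on the compared groups only, with the same 2 Rab genes called in each, so it lay on either side of the Rab share. No Rab gene was called between fed Mcl1(L-/-) and fed WT livers, where 0.036% of all probe sets were. There limma gave an unadjusted p under 0.05 to 2 of 56 Rab genes, against 1429 of all 22206 probe sets. The middle of the family lay near that of all transcripts. Its median fasting difference was 0.01 in Mcl1(L-/-) livers, against -0.0015 over all probe sets, and -0.02 in WT livers, against 0.01.

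**Figure D1:**
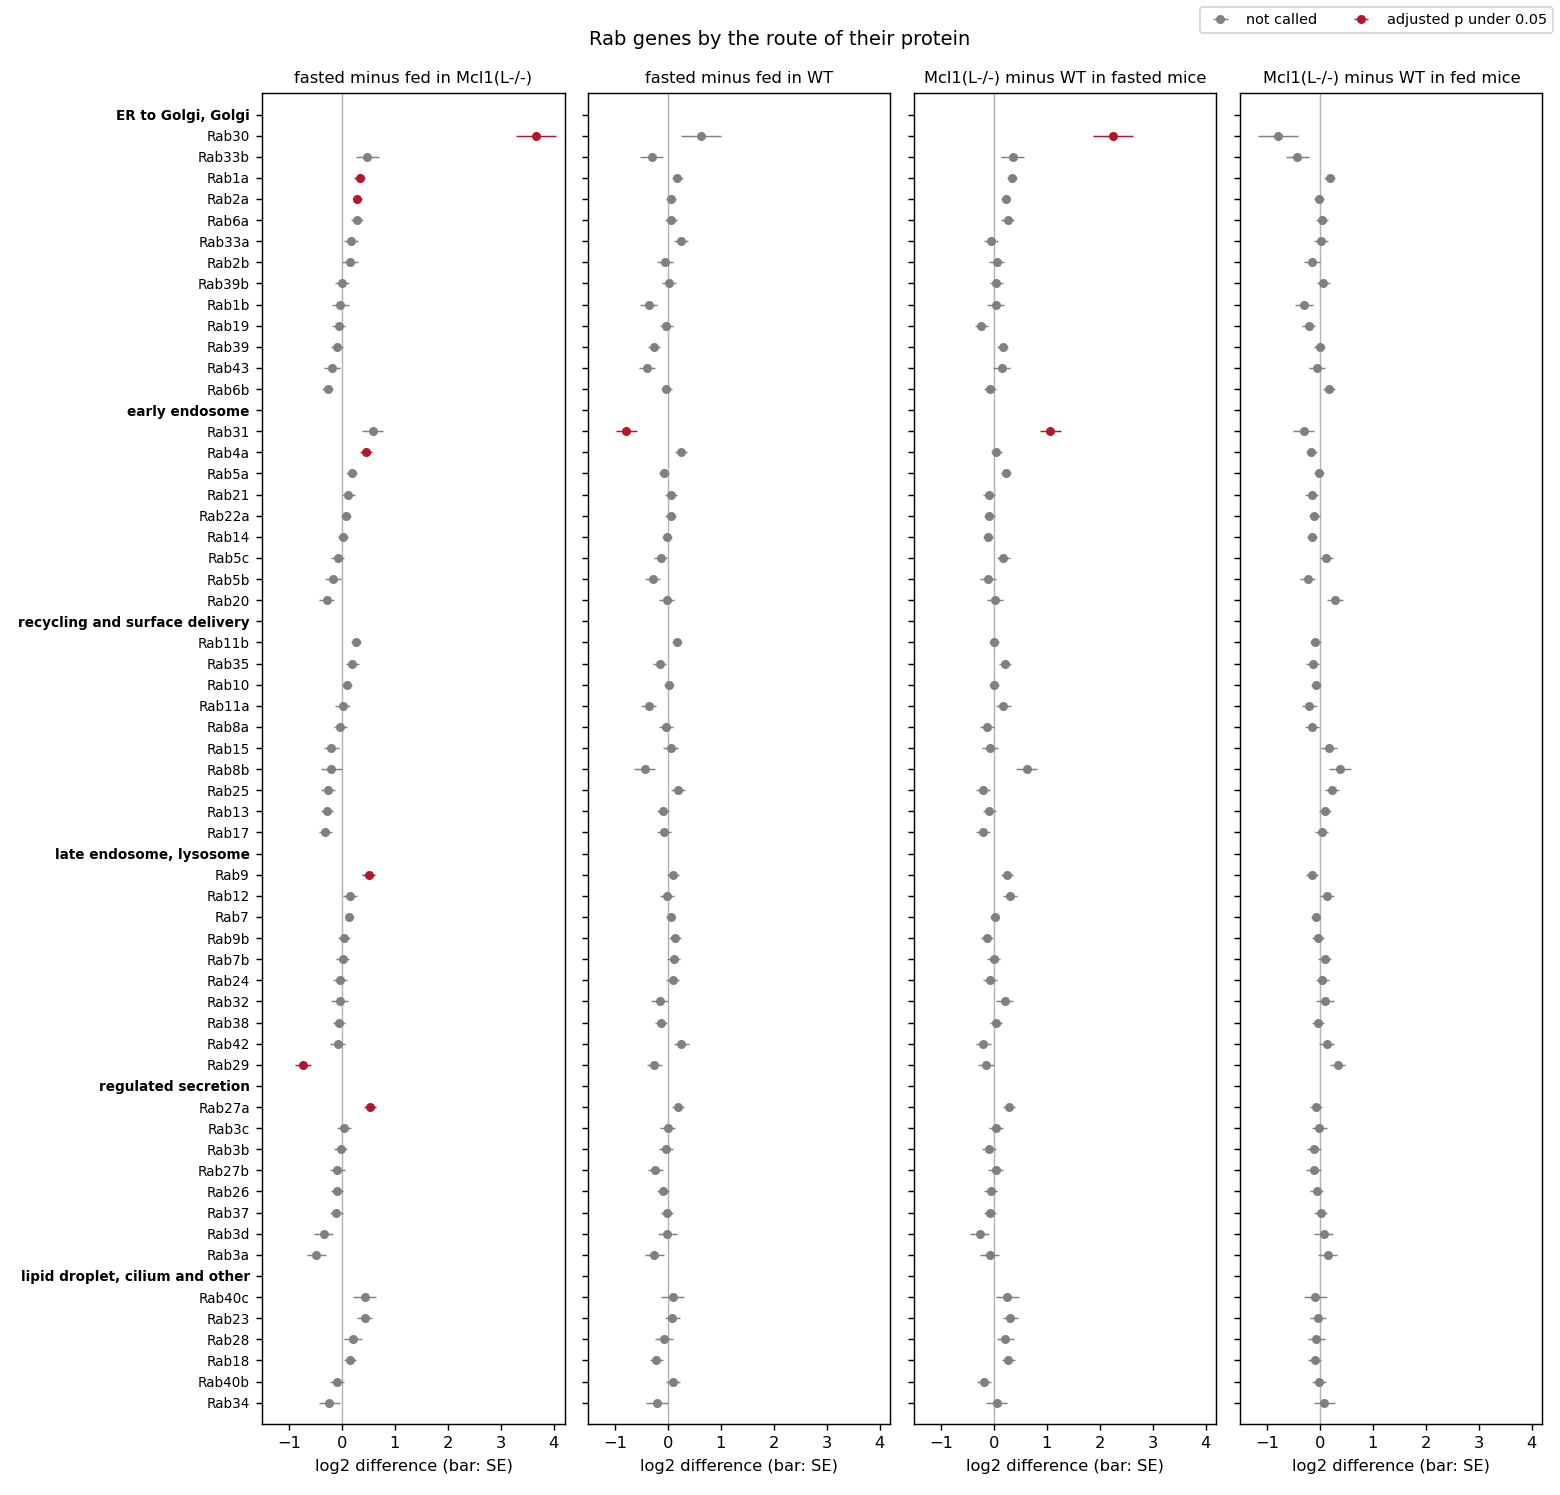
Log2 differences of the 56 Rab genes in the 4 pairwise comparisons, 1 gene per row, grouped by the route of their protein; bars are limma standard errors with 5 mice per group, and red points passed an adjusted p under 0.05. Rab30 stands far to the right of the others in fasted minus fed Mcl1(L-/-) livers at 3.66, while 48 of the 56 genes are grey in all panels.

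Among the Golgi members, Rab30 moved most. Rab30, a GTPase of the Golgi that is needed to keep the Golgi stack in order, was measured by probe set TC0700001317.mm.2. Its log2 signals in fasted Mcl1(L-/-) livers were 9.33, 9.60, 7.35, 7.84 and 8.62, against 4.28, 4.33, 4.78, 5.30 and 5.75 in fed Mcl1(L-/-) livers. The lowest fasted array thus lay well above the highest fed array, and the 2 lowest fasted values came from replicates 3 and 4, the arrays that stood apart over all transcripts. In WT livers the signals were 6.59, 6.49, 6.31, 5.68 and 6.43 after fasting and 5.40, 6.91, 5.08, 5.48 and 5.52 in fed mice. There the groups overlapped, because fed WT replicate 2 was higher than every fasted WT array.

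Rab30 averaged 8.55 ± 0.96 in fasted and 4.89 ± 0.63 in fed Mcl1(L-/-) livers (SD, n = 5 each), a 12.7-fold rise (log2 3.66, SE 0.38, limma adjusted p = 2.36e-07). Its fasting difference ranked 7 of all 22206 probe sets counted from the highest, and 1 among the Rab genes. In WT livers Rab30 averaged 6.30 ± 0.36 after fasting and 5.68 ± 0.71 in fed mice, a difference of 0.62 that was not called (95% interval -0.16 to 1.40, limma adjusted p = 0.433). The fasting differences of the 2 genotypes themselves differed by 3.04 (95% interval 1.94 to 4.14, limma adjusted p = 0.022), rank 3 from the highest of all probe sets. Without fasted Mcl1(L-/-) replicates 3 and 4, a choice made after seeing the data, the rise was 4.30 and the interaction 3.68. With eBayes run with an intensity trend and robust moderation, the interaction had an adjusted p of 0.0585.

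Set between the genotypes, Rab30 was 4.75-fold higher in fasted Mcl1(L-/-) than in fasted WT livers (log2 2.25, SE 0.38, limma adjusted p = 0.00174). All 5 fasted Mcl1(L-/-) arrays lay above all 5 fasted WT arrays. In fed mice the difference had the opposite sign, -0.79 with overlapping arrays, and was not called (limma adjusted p = 0.765, unadjusted p = 0.046). Its spread between mice was wide: among the Rab genes Rab30 had the highest SD in fasted Mcl1(L-/-), fed Mcl1(L-/-) and fed WT livers. The median SD of the 56 genes was 0.195 in fasted and 0.197 in fed Mcl1(L-/-) livers. The model uses 1 spread for the 4 groups, which is below the SD of Rab30 in fasted Mcl1(L-/-) livers alone.

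**Figure D2:**
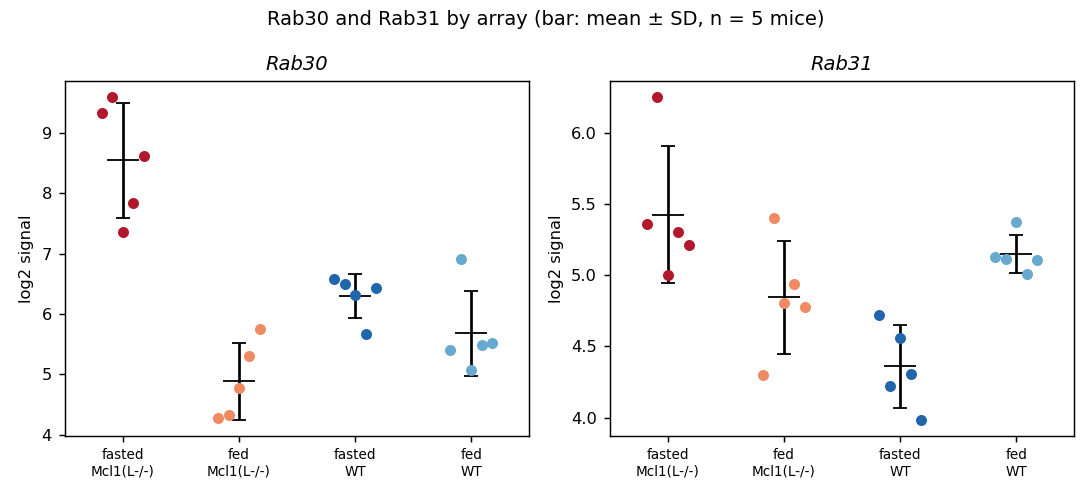
Log2 signal of Rab30 (left) and Rab31 (right) in each liver, with the mean ± SD of 5 mice per group. Fasted Mcl1(L-/-) livers hold Rab30 between 7.35 and 9.60, above all other arrays, while Rab31 is lowest in fasted WT livers at 3.99 to 4.72.

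Rab1a and Rab2a, which act in transport between the endoplasmic reticulum and the Golgi, rose by much smaller steps with fasting in Mcl1(L-/-) livers. Rab1a signals were 8.81, 8.92, 8.85, 9.11 and 8.60 in fasted Mcl1(L-/-) livers against 8.43, 8.57, 8.45, 8.66 and 8.51 in fed Mcl1(L-/-) livers. The ranges met only through fasted replicate 5, which lay below fed replicate 4. The rise of 0.34 (SE 0.10, limma adjusted p = 0.0280) was lost without fed Mcl1(L-/-) replicates 1, 3 or 5 or fasted Mcl1(L-/-) replicates 2 or 4, each left out alone, with adjusted p-values up to 0.0890. It was also lost on the compared groups only (adjusted p = 0.0678) and without fasted Mcl1(L-/-) replicates 3 and 4 together (0.25, adjusted p = 0.162). In WT livers Rab1a gave 8.59, 8.63, 8.51, 8.31 and 8.55 after fasting and 8.26, 8.43, 8.52, 8.23 and 8.23 in fed mice, an uncalled difference of 0.18 (limma adjusted p = 0.391). Between fasted Mcl1(L-/-) and fasted WT livers the difference of 0.34 was also uncalled (limma adjusted p = 0.0550), and it was called without fasted Mcl1(L-/-) replicate 5 (0.41, adjusted p = 0.0342). Of 8 other alternatives, 3 called it as well. These were arrays centred on their medians (adjusted p = 0.0466), trend and robust moderation (0.0323) and bright probe sets only (0.0335).

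Rab2a showed a tighter separation. In fasted Mcl1(L-/-) livers it measured 9.13, 9.24, 9.0, 9.23 and 9.03, against 8.83, 8.86, 8.76, 8.94 and 8.77 in fed Mcl1(L-/-) livers, with no overlap. Members whose 5 fasted and 5 fed Mcl1(L-/-) arrays did not overlap numbered 6 of 56, against 10.2% of all probe sets. The rise of Rab2a was 0.29 (SE 0.09, limma adjusted p = 0.0223), and it was lost without fed Mcl1(L-/-) replicates 3 or 5 or fasted Mcl1(L-/-) replicates 2 or 4, each left out alone, with adjusted p-values up to 0.0628. It was also lost on the compared groups only (adjusted p = 0.0693). In WT livers Rab2a measured 8.97, 8.96, 8.95, 8.70 and 8.95 after fasting and 8.85, 8.79, 8.88, 8.90 and 8.81 in fed mice, a difference of 0.06 that was not called (limma adjusted p = 0.823). Their close paralogs gave fasting differences in Mcl1(L-/-) livers of -0.03 (SE 0.17) for Rab1b and 0.15 (SE 0.15) for Rab2b, neither called, and the difference between paralogs was not tested.

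Of the 13 endoplasmic reticulum and Golgi members, 3 rose and none fell with fasting in Mcl1(L-/-) livers, against 8.2% of all probe sets higher and 6.25% lower, with a median difference of 0.15 for the 13. The largest uncalled one was Rab33b, a Golgi GTPase that recruits autophagy proteins. Its fasting difference was 0.48 in Mcl1(L-/-) livers (limma adjusted p = 0.175) and -0.31 in WT livers, with an interaction of 0.79 that was not called (limma adjusted p = 0.313). Fed Mcl1(L-/-) livers held it between 2.71 and 4.25, the widest of its 4 groups. Rab43, another Golgi member, was -0.39 in fasted minus fed WT livers and not called (limma adjusted p = 0.156).

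Rab31, a relative of Rab22a and Rab5 on early endosomes and the trans-Golgi network, was the early endosome member called for the interaction. The 250 bases before its annotated start in RefSeq (GRCm38.p6, chr17:65772753-65773002, minus strand, printed along the gene) are shown because Rab31 was called both for fasting in WT livers and between fasted genotypes. Capitals mark matches to 5 motifs searched on both strands: AGGTCA (bound by nuclear receptors), TGACGTCA (cAMP response element), CACGTG (E-box), TGTTTAC (forkhead element) and CCAAT.
Rab31: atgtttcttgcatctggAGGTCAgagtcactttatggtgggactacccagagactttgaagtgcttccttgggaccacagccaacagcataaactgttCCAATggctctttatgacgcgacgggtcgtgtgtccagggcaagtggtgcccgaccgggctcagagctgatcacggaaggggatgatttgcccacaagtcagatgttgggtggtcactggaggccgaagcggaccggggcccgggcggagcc
The AGGTCA match begins 233 bases and the CCAAT match 152 bases before the start. Among 32851 such upstream regions of the same length, AGGTCA was found in 14% and CCAAT in 33.8%. A match describes the letters in this window and was not tested for binding.

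Rab31 signals, from probe set TC1700002414.mm.2, were 4.72, 4.22, 4.56, 4.31 and 3.99 in fasted WT livers against 5.13, 5.12, 5.37, 5.01 and 5.10 in fed WT livers. All fasted WT arrays lay below all fed WT arrays. Members whose 5 fasted and 5 fed WT arrays did not overlap numbered 2 of 56 (Rab31 and the dim Rab39), against 7.36% of all probe sets in either direction. In Mcl1(L-/-) livers the signals were 5.36, 6.25, 5.0, 5.30 and 5.21 after fasting and 4.30, 5.40, 4.80, 4.94 and 4.78 in fed mice. These overlapped, since fed replicate 2 lay above 4 of the fasted arrays. Rab31 averaged 4.36 ± 0.29 in fasted and 5.15 ± 0.14 in fed WT livers (SD, n = 5 each), and it fell 1.73-fold (log2 -0.79, SE 0.20, limma adjusted p = 0.0146). In Mcl1(L-/-) livers the difference was 0.58 (95% interval 0.17 to 0.99, limma adjusted p = 0.0512). It was called when fed Mcl1(L-/-) replicate 2 (0.72, adjusted p = 0.0144) or fasted Mcl1(L-/-) replicate 3 (0.69, adjusted p = 0.0218) was left out. It was also called in 4 of 8 other alternatives. These were arrays centred on their medians (adjusted p = 0.0371), trend and robust moderation (0.0391) and bright probe sets only (0.0345). The last left out fasted Mcl1(L-/-) replicates 3 and 4 together (0.0185).

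Rab31 was 2.09-fold higher in fasted Mcl1(L-/-) than in fasted WT livers (log2 1.06, SE 0.20, limma adjusted p = 0.00350), with no overlap of arrays. The fed groups differed by -0.30 (limma adjusted p = 0.895). Members with no overlap between the fasted genotypes numbered 5 of 56 (Rab2a, Rab9, Rab27a, Rab30 and Rab31), against 3.9% of all probe sets. The interaction of Rab31 was 1.37 (SE 0.28, limma adjusted p = 0.0468). That call was kept in 4 of 20 fits that each left out 1 array, namely without fasted WT replicate 1, fed Mcl1(L-/-) replicate 2 or fasted Mcl1(L-/-) replicates 3 or 4. Over the 20 fits its value lay between 1.16 and 1.51 and its adjusted p between 0.00984 and 0.0971.

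Markers of several cell types were called in the same comparisons. Kupffer cells, macrophages that reside in the liver sinusoids, were followed by 10 measured markers of 11 listed. Their summed linear signal was 409 to 768 in fasted Mcl1(L-/-), 570 to 762 in fed Mcl1(L-/-), 311 to 394 in fasted WT and 533 to 716 in fed WT livers. Fasting in WT livers lowered 4 of the 10, against 3.68% of all probe sets, with a median of -0.58 for the list. Between fasted Mcl1(L-/-) and fasted WT livers 3 of the 10 were higher, against 3.32% of all probe sets, with a median of 0.55. Vsig4, a complement receptor of Kupffer cells, was the 1 marker of this list called for the interaction (1.26, SE 0.23, limma adjusted p = 0.0220). The 8 sinusoidal endothelial markers summed to 510 to 773 in fasted Mcl1(L-/-), 458 to 619 in fed Mcl1(L-/-), 450 to 656 in fasted WT and 587 to 756 in fed WT livers. Fasting in WT livers raised 1 and lowered 2 of the 8, against 6.79% of all probe sets called, with a median of -0.42. Between fasted genotypes none of the 8 was called by limma, with an unadjusted p under 0.05 for 4 and a median of 0.37. All 8 had interactions above 0, with a median of 0.58, and limma called none of them, with an unadjusted p under 0.05 for 5. No marker of the macrophage or endothelial list had a mean below the median of all probe sets. Of the 10 hepatocyte markers 2 rose with fasting in WT livers, against 6.79% of all probe sets called. Of 7 markers of stellate cells, described below, 1 fell with fasting in WT livers and 1 was higher between fasted genotypes. The part of these cell types in the Rab31 result was not tested. In whole liver RNA, fewer cells of a type and less RNA per cell cannot be told apart.

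**Figure D3:**
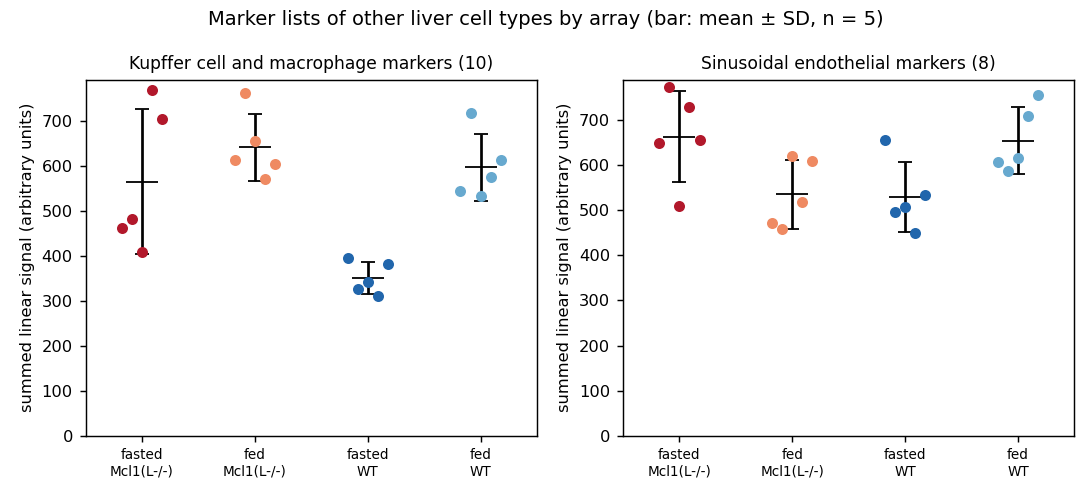
Summed linear signal of the 10 measured Kupffer cell and macrophage markers (left) and the 8 sinusoidal endothelial markers (right) in each liver, with the mean ± SD of 5 mice per group. All fasted WT livers lie below all other groups for the macrophage list, at 311 to 394, while the endothelial ranges overlap between groups.

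The fasting comparison in Mcl1(L-/-) livers, in which most called Rab genes stand, also had called markers of several cell types, against 14.4% of all probe sets. Of the 10 hepatocyte markers 3 rose and 1 fell, of the 10 macrophage markers 2 fell, and of the 8 endothelial markers 2 rose, with Lyve1, a hyaluronan receptor of sinusoidal endothelium, at 2.24 (limma adjusted p = 5.28e-06) and, for fasting in WT livers, at 1.79 (limma adjusted p = 0.000211). Stellate cells are the vitamin A storing pericytes of the liver. Their 7 measured markers of 8 listed summed to 1273 to 1750 in fasted and 878 to 1121 in fed Mcl1(L-/-) livers, without overlap, although 1 of the 7 rose and 2 fell and the list's median difference was -0.44. Markers of monocytes and neutrophils (8 measured), cholangiocytes (5) and lymphocytes (10) had no called member there. In each of these 3 lists limma gave 1 gene an unadjusted p under 0.05, and 7, 4 and 10 of the genes had means below the median of all probe sets. The part of other cell types in the Rab differences of this comparison was not tested.

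Rab4a, which returns receptors from early endosomes to the surface, rose with fasting in Mcl1(L-/-) livers. It was the only one called there of 9 early endosome members, against 14.4% of all probe sets. Its signals were 6.68, 6.86, 6.96, 6.74 and 6.55 in fasted Mcl1(L-/-) livers against 6.11, 6.25, 6.30, 6.37 and 6.48 in fed Mcl1(L-/-) livers. Each fasted array was above each fed one. The rise was 1.37-fold (log2 0.46, SE 0.11, limma adjusted p = 0.00509). In WT livers Rab4a measured 6.59, 6.75, 6.77, 6.61 and 6.83 after fasting and 6.74, 6.42, 6.15, 6.53 and 6.46 in fed mice, a difference of 0.25 in the same direction that was not called (limma adjusted p = 0.224). The interaction of 0.21 was not called either (95% interval -0.12 to 0.53), and fasted Mcl1(L-/-) and fasted WT livers differed by 0.05. Apart from Rab4a and Rab31, the early endosome members were uncalled in all comparisons, among them the 3 Rab5 genes, which switch on early endosome fusion, with fasting differences in Mcl1(L-/-) livers of 0.18 for Rab5a, -0.17 for Rab5b and -0.08 for Rab5c.

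**Figure D4:**
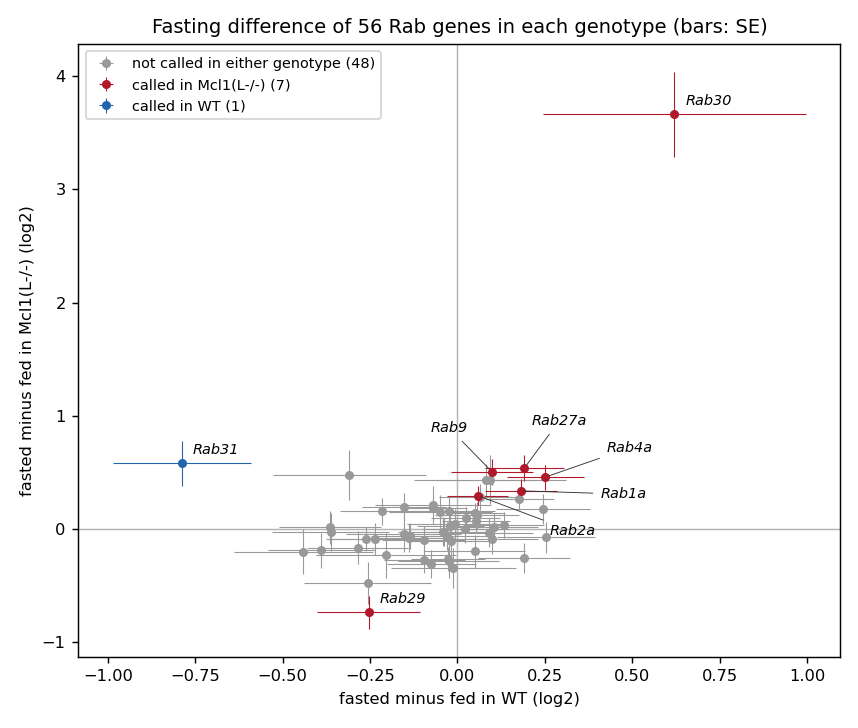
Fasting difference of each of the 56 Rab genes in WT livers (horizontal, log2) and in Mcl1(L-/-) livers (vertical, log2), with limma standard errors. Rab30 lies at 0.62 and 3.66, Rab31 at -0.79 and 0.58, and the 48 uncalled genes lie within 0.48 of 0 on both axes.

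Among the 10 late endosome and lysosome members, Rab9 was called higher and Rab29 lower after fasting in Mcl1(L-/-) livers. Of all probe sets, 8.2% were called higher and 6.25% lower, so these counts lie near those shares. Rab9, which returns mannose 6-phosphate receptors from late endosomes to the trans-Golgi network, measured 7.90, 7.96, 7.86, 8.05 and 8.10 in fasted Mcl1(L-/-) livers against 7.04, 7.57, 7.66, 7.49 and 7.61 in fed Mcl1(L-/-) livers. No arrays overlapped, and fed replicate 1 was the lowest by a wide margin. The rise was 1.42-fold (log2 0.50, SE 0.12, limma adjusted p = 0.00351). Rab9 in WT livers measured 7.84, 7.82, 7.71, 7.47 and 7.77 after fasting and 7.37, 7.60, 7.68, 7.76 and 7.72 in fed mice. These overlapped, with a difference of 0.10 (limma adjusted p = 0.757), and the interaction of 0.40 was not called (limma adjusted p = 0.332).

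Rab29, which recruits the kinase LRRK2 to the Golgi and to stressed lysosomes, was the one Rab gene that fell in Mcl1(L-/-) livers. Its signals were 3.68, 3.71, 3.77, 4.34 and 3.49 in fasted Mcl1(L-/-) livers against 4.50, 4.24, 4.92, 4.64 and 4.37 in fed Mcl1(L-/-) livers. Fasted replicate 4 was the only fasted array above any fed array. The fall was 1.67-fold (log2 -0.74, SE 0.15, limma adjusted p = 0.000889). In WT livers Rab29 measured 4.09, 3.97, 3.91, 3.68 and 4.08 after fasting and 3.91, 4.12, 4.33, 4.36 and 4.27 in fed mice, an uncalled difference of -0.25 (limma adjusted p = 0.403). Neither the interaction of -0.48 (limma adjusted p = 0.367) nor the difference of 0.34 between fed Mcl1(L-/-) and fed WT livers (limma adjusted p = 0.711) was called. Rab7, the main Rab of late endosomes and lysosomes, differed by 0.14 with fasting in Mcl1(L-/-) livers and 0.05 in WT livers, neither called.

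Rab27a, which docks secretory and lysosome-related vesicles at the plasma membrane, was called for fasting in Mcl1(L-/-) livers. It was the only one called of 8 regulated secretion members, against 14.4% of all probe sets in that comparison. Its signals were 4.43, 4.51, 4.55, 4.49 and 4.51 in fasted Mcl1(L-/-) livers against 3.97, 4.03, 3.81, 3.81 and 4.19 in fed Mcl1(L-/-) livers. The fasted arrays lay close together and above every fed array. The rise was 1.45-fold (log2 0.54, SE 0.11, limma adjusted p = 0.00151). In WT livers Rab27a measured 4.19, 4.16, 4.23, 4.25 and 4.28 after fasting and 3.82, 3.74, 4.38, 3.94 and 4.26 in fed mice, with overlap through fed WT replicates 3 and 5 and an uncalled difference of 0.19 (limma adjusted p = 0.416). The interaction of 0.35 was not called (limma adjusted p = 0.419). Its paralog Rab27b, a dim probe set, differed by -0.09 (SE 0.14) with fasting in Mcl1(L-/-) livers, and the 2 paralogs were not tested against each other.

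RefSeq lists 2 starts for Rab27a, and the upstream region of the second one (GRCm38.p6, chr9:73063898-73064147, plus strand) is shown because, beside that of Rab31, among the 5 called members for which RefSeq gave an upstream region, it was the only one that held a match to any of the same 5 motifs. The upstream regions of Rab30, Rab2a and Rab4a were not searched. Capitals mark the matches, with ATTGG standing for CCAAT on the other strand.
Rab27a: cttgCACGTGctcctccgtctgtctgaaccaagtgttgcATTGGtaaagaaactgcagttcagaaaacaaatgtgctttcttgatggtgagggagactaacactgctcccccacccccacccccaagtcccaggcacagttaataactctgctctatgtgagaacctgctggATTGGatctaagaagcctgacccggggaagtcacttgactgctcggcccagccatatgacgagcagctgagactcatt
The E-box begins 246 bases before this start and the CCAAT matches 211 and 78 bases before it. An E-box was found in 6.02% of all upstream regions, a cAMP response element in 1.55% and a forkhead element in 3.17%. The first Rab27a start and the upstream regions of Rab1a, Rab9 and Rab29 held no match to the 5 motifs in these windows. The array signal does not tell the starts apart.

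**Figure D5:**
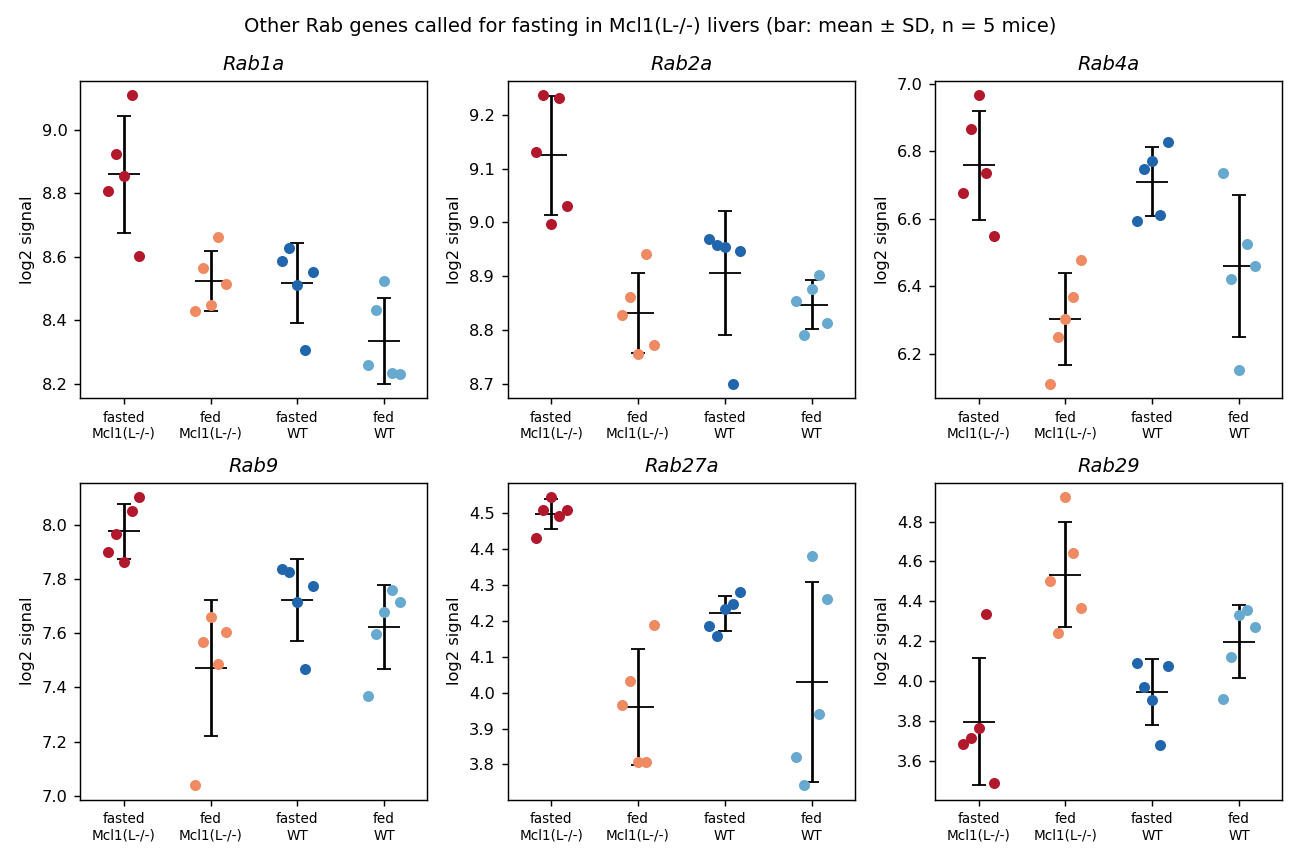
Log2 signal of the 6 other Rab genes called for fasting in Mcl1(L-/-) livers, 1 panel per gene with its own axis, with the mean ± SD of 5 mice per group. In Rab2a, Rab4a, Rab9 and Rab27a all fasted Mcl1(L-/-) arrays lie above all fed Mcl1(L-/-) arrays, and Rab29 is the one gene that is lower.

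No member of the recycling and surface delivery class was called in any comparison, with limma's unadjusted p under 0.05 for 3 of its 10 genes for fasting in Mcl1(L-/-) livers and 2 in WT livers. The class had a median fasting difference of -0.11 in Mcl1(L-/-) livers and -0.06 in WT livers. They include Rab11a and Rab11b of recycling endosomes, at 0.01 and 0.26 in fasted minus fed Mcl1(L-/-) livers, and Rab10, which carries membrane to the surface, at 0.10. Rab13, a tight junction GTPase, was lower in all fasted than in all fed Mcl1(L-/-) arrays and yet uncalled (-0.28, limma adjusted p = 0.129). Rab8b, which acts in delivery to the surface and in ciliary traffic, had the largest uncalled difference between fasted Mcl1(L-/-) and fasted WT livers (0.62, limma adjusted p = 0.0758). Its signals there were 3.63, 4.23, 4.08, 4.66 and 3.63 in Mcl1(L-/-) livers against 3.46, 2.96, 3.73, 3.34 and 3.65 in WT livers, which overlap. It also differed by 0.38 between fed Mcl1(L-/-) and fed WT livers and by -0.44 between fasted and fed WT livers, neither called (limma adjusted p = 0.821 and 0.243).

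Among the 6 lipid droplet, cilium and other members none was called, with limma's unadjusted p under 0.05 for 1 for fasting in Mcl1(L-/-) livers, 0 for fasting in WT livers and 2 between fasted genotypes. They include Rab18, which coats lipid droplets, at 0.15 in Mcl1(L-/-) and -0.22 in WT livers for fasting. Rab3a, a secretory vesicle GTPase best known in neurons, had the largest uncalled fall with fasting in Mcl1(L-/-) livers (-0.48, limma adjusted p = 0.0883). It passed without fed Mcl1(L-/-) replicate 2 (-0.60, adjusted p = 0.0310) or fasted Mcl1(L-/-) replicate 3 (-0.58, adjusted p = 0.0397). Rab3a also passed without fasted Mcl1(L-/-) replicates 3 and 4 together (-0.66, adjusted p = 0.0275). The 48 genes that were called in no comparison spanned -0.48 to 0.48 for fasting in Mcl1(L-/-) livers, -0.44 to 0.25 in WT livers, -0.26 to 0.62 between fasted genotypes and -0.43 to 0.38 between fed genotypes. Of the 56 members, 17 had a mean below 3.41, the median over all probe sets, and none of the 8 called genes was among them. Rab13, Rab25 and Rab33b lie on chromosome 3 with Mcl1, with at least 131 measured genes between, and none was called between genotypes.

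For Rab prenylation and membrane cycling, 8 listed genes were measured. With fasting in Mcl1(L-/-) livers 3 of the 8 were called higher, against 8.2% of all probe sets, and none was called lower. The differences went both ways, with 5 above 0 and 3 below, the lowest at -0.40. In this comparison limma gave an unadjusted p under 0.05 to 7 of the 8. Rabac1, a membrane protein that receives Rab proteins from their inhibitor, was higher by 0.53 (limma adjusted p = 0.00390). Rce1, a protease that trims prenylated proteins, was higher by 0.71 (limma adjusted p = 0.0129), and its call was lost without fasted Mcl1(L-/-) replicate 2 (0.57, adjusted p = 0.0521). Gdi2, a GDP dissociation inhibitor that extracts Rab proteins from membranes, was higher by 0.31 (limma adjusted p = 0.0131). None of the 8 was called for fasting in WT livers or between genotypes, where limma gave an unadjusted p under 0.05 to 0 for fasting in WT livers, 1 between fasted and 1 between fed genotypes.

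Of 41 measured exchange factors, 5 rose and 1 fell with fasting in Mcl1(L-/-) livers, and 3 rose in WT livers. These are 14.6% and 7.32% of the list, near the 14.4% and 6.79% of all probe sets called. Rabgef1, which activates Rab5, rose in both genotypes, by 0.80 in Mcl1(L-/-) livers (limma adjusted p = 5.50e-05) and 0.72 in WT livers (limma adjusted p = 0.000450). Its signals were 7.04, 6.81, 6.75, 6.54 and 6.73 in fasted against 5.77, 5.98, 5.90, 5.92 and 6.32 in fed Mcl1(L-/-) livers, without overlap. In WT livers they were 6.25, 6.20, 6.44, 6.43 and 6.69 after fasting against 5.65, 5.66, 5.56, 5.57 and 5.99 in fed mice, also without overlap. Dennd4a, which activates Rab10, rose by 0.60 in Mcl1(L-/-) livers (limma adjusted p = 0.0132). Trappc10, a subunit of the TRAPPII complex of the Golgi, was higher by 0.59 in fasted Mcl1(L-/-) than in fasted WT livers (limma adjusted p = 0.00552).

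Weaker calls among the exchange factors changed with the arrays used. Ccz1, which with its partner Mon1 activates Rab7, rose by 0.36 in Mcl1(L-/-) livers (limma adjusted p = 0.0325), and the call was kept only without fed Mcl1(L-/-) replicate 4 or fasted Mcl1(L-/-) replicates 3 or 4 among 10 such fits (adjusted p up to 0.116). Dennd6a, an exchange factor of Rab14, fell by 0.46 (limma adjusted p = 0.0458), kept only without fasted Mcl1(L-/-) replicates 3 or 4 (adjusted p up to 0.153). In WT livers Dennd1a, which activates Rab35, rose by 0.42 (limma adjusted p = 0.0176), and its call was lost without fed WT replicate 5 or fasted WT replicate 3 (0.36 in both, adjusted p up to 0.0642). Rgp1, part of a Rab6 exchange factor, rose by 0.46 in WT livers (limma adjusted p = 0.0453), kept only without fed WT replicate 1 or fasted WT replicates 2 or 5 (adjusted p up to 0.145).

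GTPase-activating proteins included the regulator with the clearest difference between genotypes. Of 38 measured, 3 rose and 1 fell with fasting in Mcl1(L-/-) livers and 1 rose in WT livers. These are 10.5% and 2.63% of the list, against 14.4% and 6.79% of all probe sets called. Tbc1d15, which acts on Rab7 and on mitochondria, measured 6.34, 6.62, 6.05, 6.40 and 6.58 in fasted Mcl1(L-/-) livers against 4.95, 5.25, 4.98, 5.33 and 5.05 in fed Mcl1(L-/-) livers. Its WT signals were 5.09, 5.21, 5.16, 5.08 and 5.78 after fasting and 5.38, 5.28, 5.06, 5.17 and 4.74 in fed mice. All fasted Mcl1(L-/-) arrays thus lay above the arrays of the other 3 groups. Tbc1d15 rose by 1.29 with fasting in Mcl1(L-/-) livers (limma adjusted p = 9.72e-07), and its interaction was 1.15 (limma adjusted p = 0.0220). That interaction had adjusted p-values of 0.0501 without fasted WT replicate 2 and 0.0523 without fasted Mcl1(L-/-) replicate 5.

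Rab3gap1, the catalytic subunit of the complex that turns off Rab3 and also activates Rab18, rose by 0.79 with fasting in Mcl1(L-/-) livers (limma adjusted p = 0.00218). It was also higher by 0.65 in fasted Mcl1(L-/-) than in fasted WT livers (limma adjusted p = 0.0308), a call kept only without fasted Mcl1(L-/-) replicates 3 or 4 or fasted WT replicates 3 or 5 among 10 such fits (adjusted p up to 0.0952). Tbc1d8, a protein of the same family, rose by 0.71 in Mcl1(L-/-) livers (limma adjusted p = 0.00304) and by 0.57 in WT livers (limma adjusted p = 0.0294), the second kept only without fed WT replicate 3 or fasted WT replicates 2 or 4 (adjusted p up to 0.102). Tbc1d4, the insulin-regulated protein that acts on Rab10 and GLUT4 vesicles, fell by 0.57 in Mcl1(L-/-) livers (limma adjusted p = 0.00372).

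Effectors numbered 52 measured genes, of which 6 rose and 2 fell with fasting in Mcl1(L-/-) livers, 2 rose in WT livers, and 4 were higher and 2 lower in fasted Mcl1(L-/-) than in fasted WT livers. For fasting these are 15.4% and 3.85% of the list, against 14.4% and 6.79% of all probe sets called, and the 6 of 52 between fasted genotypes stand against 4.99%. Golga5, a golgin that binds Rab1 on the Golgi rim, measured 7.56, 7.79, 6.98, 7.44 and 7.35 in fasted against 6.11, 6.27, 6.28, 6.23 and 6.22 in fed Mcl1(L-/-) livers. That is a rise of 1.20 without overlap (limma adjusted p = 1.50e-06), and fasted Mcl1(L-/-) livers were 0.85 above fasted WT livers (limma adjusted p = 0.00171). Appl1, a Rab5 effector that couples to the adiponectin receptor, rose by 1.12 in Mcl1(L-/-) livers (limma adjusted p = 0.000107). In WT livers Appl1 rose by 0.66 (limma adjusted p = 0.0274), which was lost without fed WT replicate 2 or fasted WT replicates 2 or 3 (adjusted p up to 0.0965). Rab11fip2, which links Rab11 to motors, rose by 0.99 in Mcl1(L-/-) livers (limma adjusted p = 0.000263). Osbpl1a, a cholesterol sensor that binds Rab7, rose by 0.48 in WT livers (limma adjusted p = 0.00896) and by 0.39 in Mcl1(L-/-) livers (limma adjusted p = 0.0226). The second call was kept only without fed Mcl1(L-/-) replicates 1 or 4 or fasted Mcl1(L-/-) replicates 2 or 5 among 10 such fits (adjusted p up to 0.0668), and without fasted Mcl1(L-/-) replicates 3 and 4 together the difference was 0.23 (adjusted p = 0.233).

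Between fasted Mcl1(L-/-) and fasted WT livers, Appl1 was higher by 0.76 (limma adjusted p = 0.0175), lost without fasted WT replicate 4 or fasted Mcl1(L-/-) replicate 5 (adjusted p up to 0.0537). Gcc2, a golgin of the trans-Golgi network that binds Rab6 and Rab9, was higher by 0.56 (limma adjusted p = 0.0179), lost without fasted WT replicate 1 or fasted Mcl1(L-/-) replicate 2 (adjusted p up to 0.0603). Rilp, the Rab7 effector that recruits dynein, was lower by 0.51 (log2 -0.51, limma adjusted p = 0.00677). Rims1, a Rab3 effector of synapses, fell by 0.35 with fasting in Mcl1(L-/-) livers and was at -0.42 between the fasted genotypes, and Exph5, a Rab27 effector, fell by 0.39 with fasting in Mcl1(L-/-) livers (limma adjusted p = 0.0327, 0.0295 and 0.0404). Each of these 3 calls was lost in 6 of 10 fits that left out 1 array. For fasting, Rims1 was kept without fed Mcl1(L-/-) replicates 3 or 4 or fasted Mcl1(L-/-) replicates 2 or 3, and Exph5 without fed Mcl1(L-/-) replicates 1 or 2 or fasted Mcl1(L-/-) replicates 3 or 5. Between genotypes, Rims1 was kept without fasted Mcl1(L-/-) replicates 2 or 3 or fasted WT replicates 1 or 2. The adjusted p-values reached 0.0994 for Rims1 with fasting, 0.0853 for Rims1 between genotypes and 0.125 for Exph5. Without fasted Mcl1(L-/-) replicates 3 and 4 together, Gdi2 and Dennd4a, each kept when 1 array was left out, had adjusted p-values of 0.0557 and 0.0616 for fasting in Mcl1(L-/-) livers.

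Set beside the Rab genes, 1 of 16 measured Arf, Arl and Sar GTPases (6.25%) was called for fasting in Mcl1(L-/-) livers, against 14.4% of all probe sets. For fasting in WT livers the count was 0 of 16, and limma gave an unadjusted p under 0.05 to 2 of the 16. For the interaction no gene of this family was called, with unadjusted p-values under 0.05 for 2 of them. The shares of the Rab genes and of this family were not tested against each other.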

How the data were processed

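For 20 arrays, 1 deposited table holds log2 signals that, per the submitters' processing notes, the authors made with RMA, a method with background correction and quantile normalisation, and Partek 7.0. The log base is not written in the table, and log2 is assumed from RMA and from values between 1.34 and 12.56. Quantile normalisation hides a shift shared by most transcripts, and folds of dim probe sets are compressed. Medians of the arrays ran from 3.35 to 3.47, all arrays differed, and precision is limited by their number.

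One mean per group was fitted to all 22206 probe sets with limma 3.58.1 in R 4.3.3 (eBayes, prior df 6.95), with p-values adjusted by Benjamini-Hochberg over all of them and a threshold of 0.05. Standard errors are limma's and SDs are between 5 mice. Gene names came from the platform annotation, and upstream regions from RefSeq, which had 1 for 47 of the 56 members. The steps were tested on simulated data. Figures used matplotlib 3.10.9 in Python 3.11.15. Members, roles, regulator lists and markers were chosen with earlier results of these data known, so counts over them are descriptions. Named were Rab30, all called members, the 2 largest uncalled differences of each pairwise comparison, up to 3 called regulators of each list and direction per comparison, and Mcl1. Lyve1, Rab13, Rab39 and paralogs, relatives or well-known members of each route were named after their values were seen. Alternatives were other scalings, moderation, array weights, leaving out dim probe sets, fits on the compared groups only, a replicate block and leaving out arrays.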

Additional observations from a re-analysis of the deposited data

Results flagged for a closer look

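In 12 named Rab genes, 48 groups of 5 livers were examined for 1 liver far from the rest, a gap that chance alone gives in about 1 in 20 groups, and 5 groups had one. The Rab30 signal of fed WT replicate 2 was 6.91, while the rest of that group lay between 5.08 and 5.52. Rab31 measured 6.25 in fasted Mcl1(L-/-) replicate 2 against 5.0 to 5.36 in the others. Rab9 measured 7.04 in fed Mcl1(L-/-) replicate 1 against 7.49 to 7.66, Rab2a 8.70 in fasted WT replicate 4 against 8.95 to 8.97, and Rab3a 5.21 in fasted WT replicate 2 against 4.18 to 4.39.

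The fasting difference itself differed between Mcl1(L-/-) and WT livers for Rab30, by 3.04 on the log2 scale, and for Rab31, by 1.37, both called by limma's interaction test over all probe sets.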

How the results depend on the processing

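Rab30 kept its rise with fasting in Mcl1(L-/-) livers and its difference between fasted genotypes under every alternative run. Rab4a, Rab9, Rab27a and Rab29 kept their calls for fasting in Mcl1(L-/-) livers likewise. The count of Rab genes called for fasting in Mcl1(L-/-) livers was 5 on the compared groups only and 7 to 10 under the other alternatives. It was 5 to 10 when 1 array was left out, and 10 without fasted Mcl1(L-/-) replicates 3 and 4, of which 6 were shared with the 7. The count for fasting in WT livers was 1 throughout, that between fasted genotypes 2 to 3 and that between fed genotypes 0. For the interaction it was 1 with trend and robust moderation, which kept Rab31, and 1 to 2 without single arrays. With the replicate block it was 1, Rab30, with an adjusted p of 0.0537 for Rab31. The block also ended calls of Ccz1 (0.0577), Dennd6a (0.0796), Rab3gap1 between fasted genotypes (0.0559), Appl1 in WT livers (0.0545) and Rims1 (0.0576 and 0.0538). Fits on the compared groups only ended those of Osbpl1a in Mcl1(L-/-) livers, Rab1a, Rab2a, Ccz1, Dennd6a, Exph5 and Rgp1. They also ended that of Rab3gap1 between fasted genotypes and both of Rims1 (adjusted p up to 0.103). Quantile normalisation ended Ccz1, Exph5 and that Rab3gap1 call (up to 0.0775), and centring on medians Dennd6a and Exph5 (up to 0.0852). Trend and robust moderation ended calls of Dennd1a, Exph5 and both of Rims1 (adjusted p up to 0.0795), and array weights Rims1 between fasted genotypes (0.0562). Same-numbered arrays of different groups had deviations correlated at -0.190 to 0.166, over 0.1 in 1 of 30 pairs, so the numbers were not taken to pair mice. A fit on the compared groups only could not be made for the interaction. The causes of these changes were not tested. None of the differences followed through the alternatives reversed. Others, such as the fasting differences of Rab11a and Rab1b in Mcl1(L-/-) livers, were not followed. No member had a second probe set to try.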
